A study of Mus musculus with 36 samples.

Results

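The immediate early genes described here are 10 activity-induced genes, Fos, Fosb, Junb, Egr1, Egr2, Arc, Npas4, Nr4a1, Atf3 and Ier2, out of 56980 gene rows in a table of raw counts. They were chosen by name for their measured values in these samples, because one knockout library given vehicle, L246, stood apart in them. All 10 were among the 25601 genes that passed the filter on low counts. RNA was sequenced from brain samples of 36 mice aged 37 to 45 days. They lacked Ndufs4, a subunit of mitochondrial complex I (knockout, KO), or were wild type (WT), and received CP2, an inhibitor of complex I, or vehicle by gavage on 3 days. According to the design text hippocampus and cortex were taken, while each sample is labelled brain, so the mix of regions in a sample is not known. With the letter F or M of the sample titles there were 8 groups: KO and WT with CP2 or vehicle, of 5 samples each, except KO vehicle M and WT vehicle M with 3 each. The labels do not say whether the knockout covered the whole body or how the control animals were related to it.

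Immediate early genes are transcribed within minutes of a stimulus from factors that are already present in the cell, without new protein synthesis. In neurons, calcium entry and MAP kinase and CREB pathways switch them on, so their transcripts are widely used as a mark of recent neuronal activity. Their products are mostly transcription factors, which act on later genes, together with effectors at the synapse such as Arc. The transcripts are short-lived, and their levels depend on what an animal experienced shortly before the tissue was taken.

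Levels are given as CPM, counts scaled to the size of each library. Samples held between 4.61e+07 and 8.86e+07 counts in genes, and between 5.09% and 13.2% of reads fell outside annotated genes. Ndufs4 lay between 27.4 and 39.1 CPM in the 18 KO samples and between 38.9 and 62.8 CPM in the 18 WT samples, so a transcript remained in KO and the ranges met at their ends. Xist, the RNA of the silenced X chromosome, ranged from 439 to 798 CPM in the 20 F samples and was at most 0.833 CPM in 15 of the M samples. The other M sample, L291 of the KO CP2 M group, had 47.3 CPM. L246 and L291 stand apart for these reasons, and differences that rest on L246 are given with and without it. L291 was left out, alone or together with L246, for counts of called immediate early genes in KO against WT with CP2. It was also left out for some single calls. Most other results that use the KO CP2 M group are given only with L291 included. The brain label was checked on Snap25, Rbfox3 and Syt1, pan-neuronal markers that summed to at least 2502 CPM in every sample.

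The promoters of 4 genes are shown because Fos, Npas4 and Egr2 moved together over the 35 samples without L246 (Spearman 0.76 to 0.91). Atf3 followed them less (0.10 to 0.17). The contrast was weaker with group means removed. Atf3 then had 0.53 with Fos, 0.52 with Egr2 and 0.29 with Npas4, where Npas4 had 0.59 with Fos and 0.56 with Egr2. They are the 250 bases before a RefSeq transcription start in the mouse build GRCm38.p6, read 5′ to 3′ on the gene's strand. The windows are chr12:85473640-85473889 (plus strand) for Fos, chr19:4989972-4990221 (minus strand) for Npas4, chr10:67537619-67537868 (plus strand) for Egr2 and chr1:191183334-191183583 (minus strand) for Atf3. Capitals mark the CRE core, TGACG or CGTCA, the short form of the site that CREB binds, and in Egr2 also the CArG box, the site that SRF binds.
Fos: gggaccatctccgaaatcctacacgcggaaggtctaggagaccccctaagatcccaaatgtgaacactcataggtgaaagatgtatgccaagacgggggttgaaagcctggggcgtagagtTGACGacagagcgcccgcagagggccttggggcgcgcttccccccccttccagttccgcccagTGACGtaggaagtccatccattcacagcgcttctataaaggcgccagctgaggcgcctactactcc
Npas4: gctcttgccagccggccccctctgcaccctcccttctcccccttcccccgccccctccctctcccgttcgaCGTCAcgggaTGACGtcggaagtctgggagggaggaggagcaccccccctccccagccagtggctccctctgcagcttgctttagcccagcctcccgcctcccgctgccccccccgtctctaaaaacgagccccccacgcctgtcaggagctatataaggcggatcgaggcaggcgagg
Egr2: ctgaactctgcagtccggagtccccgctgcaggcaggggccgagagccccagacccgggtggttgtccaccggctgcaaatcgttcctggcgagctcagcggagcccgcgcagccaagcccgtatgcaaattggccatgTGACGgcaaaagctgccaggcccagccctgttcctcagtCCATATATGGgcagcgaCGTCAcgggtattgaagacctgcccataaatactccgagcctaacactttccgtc
Atf3: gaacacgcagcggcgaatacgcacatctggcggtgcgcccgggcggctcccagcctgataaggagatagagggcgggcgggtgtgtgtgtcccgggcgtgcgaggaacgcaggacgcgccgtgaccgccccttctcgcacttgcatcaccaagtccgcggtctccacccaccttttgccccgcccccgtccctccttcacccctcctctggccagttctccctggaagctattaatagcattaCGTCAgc
RefSeq windows were matched for 7 of the 10 genes (Fos, Fosb, Junb, Egr2, Npas4, Nr4a1 and Atf3). All 7 held a CRE core on either strand, against 19.8% of the 27025 genes with a window of this length. The full CRE, TGACGTCA, which contains the core, was in 0 of the 7 and in 1.77% of all genes. A CArG box was in 1 of the 7, Egr2, and in 1.62% of all genes. The AP-1 site TGANTCA was in 0 of the 7 against 7.82%, the EGR site GCGNGGGCG in 2 against 5.33% (Fosb and Nr4a1), and TATAA in 2 against 25.8% (Fos and Npas4). These are matches of letters in short windows and say nothing of binding in these samples.

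Per kilobase of exon, the genes spanned a wide range of levels. In the WT vehicle F group, Egr1 had the highest median at 41.8 CPM per kilobase, followed by Arc at 31.7 and Junb at 22.9. Nr4a1 had 12.6, Fos 7.73, Ier2 5.39 and Npas4 2.80 CPM per kilobase. Fosb at 1.56, Egr2 at 1.13 and Atf3 at 0.416 CPM per kilobase were lowest. The exons of Junb overlap those of Prdx2 on the other strand, and the sources used here do not say whether counting used strand, so reads of those exons cannot be assigned to Junb with certainty.

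In L246, a library of the KO vehicle F group, all 10 genes were at their highest level of the 36 samples. The values chose the genes, so they are given as a description with no test. Across all tested genes, 4.30% were above the other 35 samples in L246, and 7.51% were more than 1 higher on the log2 scale than the mean of the other 4 samples of its group. Fos, a subunit of the transcription factor AP-1, had 644 CPM in L246 and 8.93, 21.9, 13.9 and 19.5 CPM in the rest of the group. Its mean in those 4 samples was 16.1 ± 5.82 CPM (SD, n = 4), a 40.1-fold gap, and the highest level in any of the other 35 samples was 73.2 CPM. Fosb, a close relative that also forms AP-1, had 330 CPM in L246 against 7.60 ± 1.41 CPM (SD, n = 4), a 43.4-fold gap. Junb, a partner of the Fos proteins, had 644 CPM against 55.2 ± 20.9 CPM (SD, n = 4), an 11.7-fold gap. L246 was thus above its group in both partners of the AP-1 dimer, and none of the other 4 samples came near it.

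Npas4, a neuron-specific factor that responds to calcium entry, had the largest ratio of the 10 genes, with 419 CPM in L246 against 8.08 ± 2.75 CPM (SD, n = 4), which is 51.8-fold. Atf3, a factor of the same bZIP class as Fos that also responds to cell stress, had 28.9 CPM against 0.953 ± 0.323 CPM (SD, n = 4), which is 30.3-fold, and no other library exceeded 2.25 CPM. Egr2, a zinc finger factor, had 74.7 CPM against 3.39 ± 2.17 CPM (SD, n = 4). The smallest ratios were those of Egr1 and Arc, which were also the most abundant genes in the rest of the group. Egr1, which shares its zinc fingers with Egr2, had 716 CPM against 136 ± 51.2 CPM (SD, n = 4), a 5.26-fold gap. Arc, whose product removes AMPA receptors from synapses, had 594 CPM against 74.8 ± 31.5 CPM (SD, n = 4), a 7.94-fold gap. Nr4a1, an orphan nuclear receptor, was 9.09-fold and Ier2, a nuclear protein, 9.08-fold above the mean of the other 4 samples.

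The next highest of the 35 other samples was far from L246 in some genes and close in others. Npas4 was 17.3-fold, Atf3 12.8-fold, Fosb 10.9-fold and Fos 8.79-fold above the next sample. Egr1 was 1.63-fold and Arc 1.39-fold above it, so for these 2 genes another library came close. That next library was L240 of the WT CP2 F group for 9 of the 10 genes and L234 of the KO CP2 F group for Atf3. At the other end, L322 of the KO vehicle M group was lowest of the 35 for 6 genes. L291 was lowest for 2 (Egr1 and Nr4a1).

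**Figure D1:**
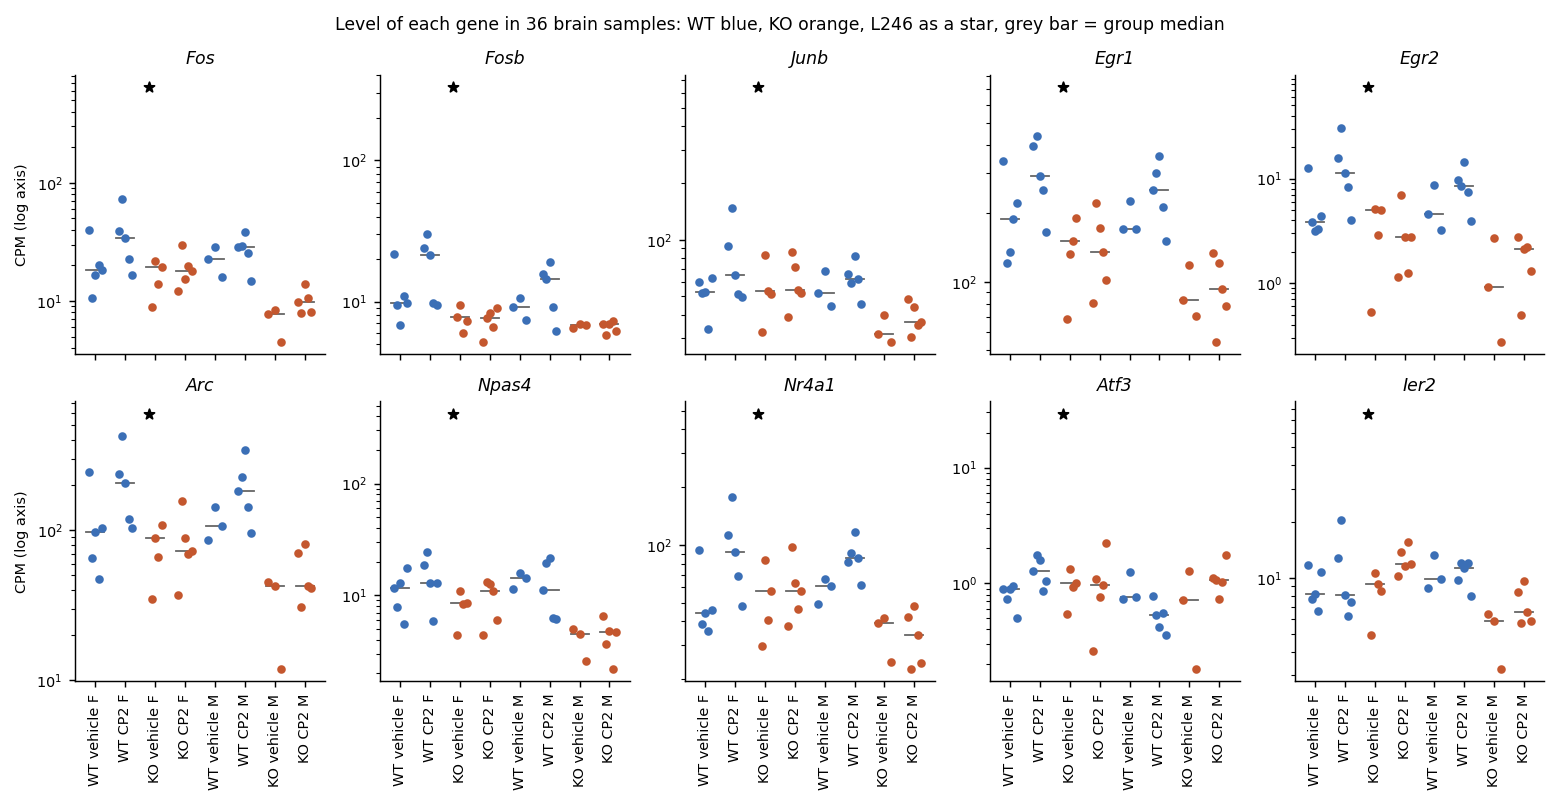
CPM on a log axis for each of the 10 genes in each of the 36 samples, by group, with WT in blue, KO in orange, L246 as a star and the median of all samples of a group as a grey bar. L246 is the highest point in every panel, 644 CPM for Fos against at most 73.2 CPM elsewhere.

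Other genes known to be induced by activity were also high in L246. Of 40 other immediate early genes, 31 were above all other 35 samples, where 4.30% of all tested genes were. More than 1 log2 unit above the other 4 samples of the group were 26, where 7.51% of all genes were. The median difference of the list was 1.61. Btg2, an antiproliferative gene, had 333 CPM against 15.9 ± 8.47 CPM (SD, n = 4). Ccn1, a secreted matrix protein, had 176 CPM against 7.77 ± 5.28 CPM (SD, n = 4), and Ptgs2, the inducible cyclooxygenase, 94.5 CPM against 7.5 ± 2.35 CPM (SD, n = 4). Dusp1, a phosphatase that switches off MAP kinases, had 250 CPM against 32.0 ± 8.86 CPM (SD, n = 4). Others of the list were not among the high genes, such as Ier5, Per1 and Myc, and Homer1 and Klf10 lay below the mean of the group. Homer1, a scaffold protein of the synapse, had 102 CPM against 115 ± 41.7 CPM (SD, n = 4), where counts per gene do not separate its short activity-induced form. These genes were picked from the list for their values in L246.

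Genes that act later or upstream stood closer to the group by their median difference. For the counts that follow, 4.30% of all tested genes were above the other 35 samples in L246. More than 1 log2 unit above the group were 7.51%. Of 20 later activity-regulated genes, 2 (Scg2 and Spty2d1) were above the other 35 samples, 2 (Spty2d1 and Gpr3) were more than 1 log2 unit above the group, and the median difference was 0.35. Bdnf, the neurotrophin, had 33.5 CPM in L246 against 21.9 ± 5.79 CPM (SD, n = 4). Of 32 regulators of the pathway, such as Creb1 and Camk2a, 0 were more than 1 log2 unit away in either direction, with a median difference of -0.07, and 3 (Srf, Prkaca and Nelfa) were above the other 35 samples. Srf, the factor that binds the CArG box and is itself induced by activity, had 68.8 CPM against 44.2 ± 3.89 CPM (SD, n = 4). Of 19 tested stress genes, 3 (Atf4, Dnajb1 and Sesn2) were above the other 35 samples and 1 was more than 1 log2 unit above the group, with a median difference of 0.32. That gene was Dnajb1, a cochaperone, at 144 CPM against 52.0 ± 4.37 CPM (SD, n = 4). Ddit3, a stress factor downstream of Atf4, had 19.5 CPM against 18.5 ± 1.0 CPM (SD, n = 4).

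**Figure D2:**
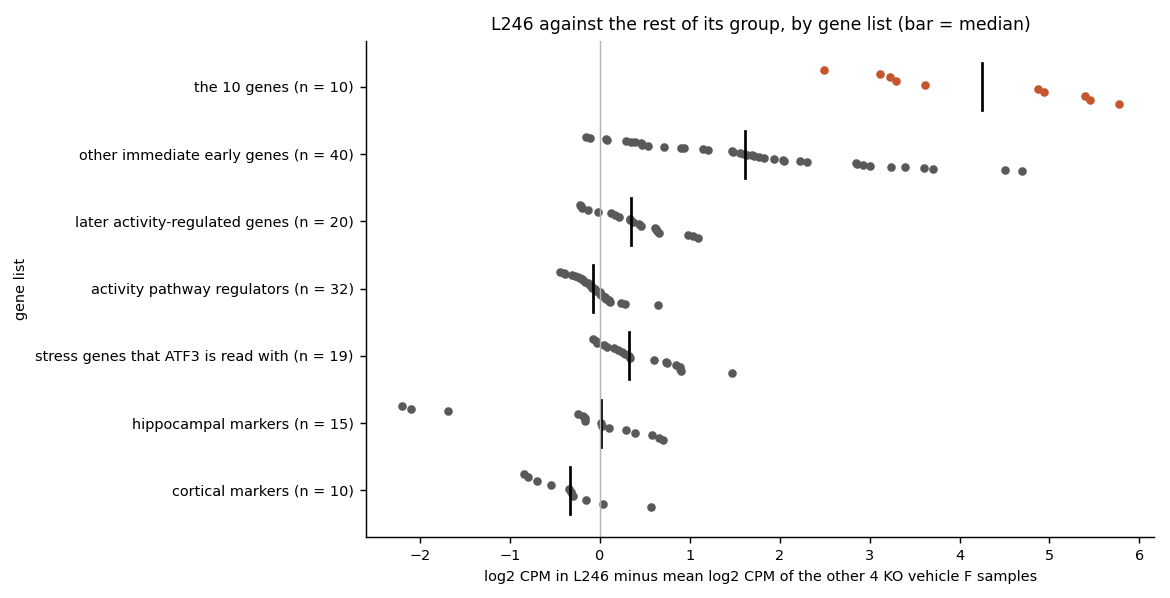
Difference between L246 and the mean of the other 4 KO vehicle F samples in log2 CPM, a point per gene and a row per list, with the median as a black bar. The medians are 1.61 for the other immediate early genes, 0.35 for the later activity-regulated genes and -0.07 for the pathway regulators.

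Region markers were also read in L246. Its hippocampal score, the mean log2 CPM of 15 markers, was 3.73, the lowest of its group, which ranged up to 4.11. Dsp, Lct and Tdo2 were more than 1 log2 unit below the other 4 samples, and the other 12 hippocampal markers were not. Prkcd of the thalamic, Alas2 of the blood and Pomc of the pituitary markers were also that far below. The 10 cortical markers summed to 439 CPM, also the lowest of the group (up to 663 CPM), as were the thalamic (190 CPM, up to 356 CPM) and blood sums (74.8 CPM, up to 129 CPM). The sums of oligodendrocyte (9538 CPM, from 6273 CPM), oligodendrocyte precursor (106 CPM), microglia and endothelial markers (187 CPM, from 109 CPM) were the highest of the group. Of the 4 endothelial markers, 1 (Cldn5) was above the other 35 samples, at 57.8 CPM against 31.8 ± 3.85 CPM (SD, n = 4), and 0 of the markers of the other 14 cell types and regions were. Of all tested genes, 4.30% were. The share of reads outside genes was 10.1%, within the range of the group (6.19% to 11.7%), and Ndufs4 was at 35.9 CPM, within the KO range. Whether any of these moves with the high immediate early genes was not tested. In bulk tissue, fewer cells of a type and less RNA per cell cannot be told apart.

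The sign of most differences that use the KO vehicle F group depended on L246, and they are given as a description only. With all 5 samples, KO vehicle F was above WT vehicle F in all 10 genes by log2 differences from 0.33 (SE 0.43, Egr1) to 3.03 (SE 0.78 for Atf3 and 0.86 for Npas4), with a median of 1.71. That 4 of the 10 passed an adjusted p of 0.05, where 4.96% of all genes did, follows values that chose the genes, and nothing is read from it. Without L246 the median was -0.41, 7 of the 10 genes were lower in KO and 0 passed, where 3.14% of all genes did. Fos went from 2.75 (SE 0.79) to -0.38 (SE 0.38), and Npas4 from 3.03 (SE 0.86) to -0.45 (SE 0.43). Junb, Nr4a1 and Atf3 remained higher in KO without L246, by 0.09, 0.04 and 0.26. CP2 against vehicle in KO, F, was negative for all 10 genes with L246 (median -2.04), and 0 passed, where 0.0859% of all genes did. Without it the median was 0.18.

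Knockout against wild type was tested where the KO vehicle F group takes no part. L246 is in none of the groups compared. It enters these fits through the filter on low counts, the scaling of libraries and the spread of each gene that all groups share. Without it 25511 genes were tested. Each p-value here rests on the spread between samples within groups, pooled for each gene over all 8 groups and not only those compared. The labels name the samples as separate animals by title number only. Given CP2, KO samples had less Egr1, Egr2 and Arc than WT samples when the F and M differences were averaged. Egr2 was lower by a log2 difference of -2.26 (SE 0.61, adjusted p = 0.0143 in edgeR's quasi-likelihood test with Benjamini-Hochberg adjustment), a 4.79-fold difference. Arc was lower by -1.62 (SE 0.43, adjusted p = 0.0123 by the same edgeR test), a 3.08-fold difference, and Egr1 by -1.26 (SE 0.31, adjusted p = 0.00770 by the same edgeR test), a 2.40-fold difference. These 3 of the 10 genes were called, all lower, where 11.6% of all genes were called. The log2 difference was negative in 9 of the 10 genes with a median of -1.14, against a median of 0.01 over all genes. Atf3 was the exception at 0.41 (SE 0.53).

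Without L246 nearly the same log2 differences came with smaller errors. L246 was singled out by its values in these 10 genes, so leaving it out was bound to lower their shared spread. Calls and p-values gained without it, here and below, are therefore given as a description. Fos went from -1.21 to -1.20 while its SE went from 0.54 to 0.26, and Fosb stayed at -1.17 while its SE went from 0.53 to 0.21. In that fit 7 of the 10 genes were lower in KO, the first 3 and Fos, Fosb, Npas4 and Nr4a1, where 11.8% of all genes were called. Fosb had an adjusted p of 0.000505, Fos of 0.00215, Nr4a1 of 0.00418 and Npas4 of 0.0109 (edgeR, without L246). Junb at -0.56 (adjusted p = 0.0568, edgeR) and Ier2 at -0.18 (adjusted p = 0.601, edgeR) did not pass. Leaving out L291 as well again gave 7 genes, the same ones, where 10.8% of all genes were called.

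In the M samples with CP2, the levels of the Egr genes and Arc were separated by genotype. Egr1 had 134, 54.6, 121, 92.9 and 78.5 CPM in KO and 253, 301, 358, 213 and 151 CPM in WT. Arc had 71.0, 31.0, 80.6, 42.8 and 41.0 CPM in KO and ranged from 95.9 to 343 CPM in WT, with a mean of 199 ± 94.1 CPM (SD, n = 5). Egr2 had 2.76, 0.493, 2.10, 2.23 and 1.30 CPM in KO and 9.70, 8.58, 14.4, 7.47 and 3.94 CPM in WT. No KO value reached the lowest WT value in these 3 genes. The same held for Fos, which had 9.75, 7.99, 14, 10.5 and 8.04 CPM in KO and 28.7, 29.4, 38.4, 25.3 and 14.9 CPM in WT, and for Nr4a1 (at most 48.3 CPM in KO and at least 62.1 CPM in WT). These 5 of the 10 genes had every KO sample below every WT sample, as did 6.33% of all genes. In Fosb, Npas4, Junb and Ier2 the WT sample L289 lay within the KO range, so the groups overlapped. For Npas4 the WT sample L267 did too, at 6.30 CPM where KO reached 6.51 CPM. Atf3 ran the other way, with a mean of 1.14 ± 0.383 CPM (SD, n = 5) in KO and 0.528 ± 0.160 CPM (SD, n = 5) in WT, and the groups overlapped.

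Of the 10 genes, 2 were called in M with CP2, Egr1 (log2 difference -1.41, SE 0.44, adjusted p = 0.0407, edgeR) and Arc (-1.90, SE 0.61, adjusted p = 0.0460, edgeR), where 9.99% of all genes were called. Both calls were lost when any of L259, L262 or L263 of WT or L291, L292, L298 or L299 of KO was left out, and Arc's also without L266. In those fits between 5.74% and 10.2% of all genes were called. When the percentage of reads outside genes was a covariate, 0 were called, where 3.37% of all genes were, while the log2 difference of Egr1 was -1.59. Adding each sample's title number to the model also left 0 called, where 7.83% of all genes were. It made both differences smaller, -0.91 for Egr1 (adjusted p = 0.147, edgeR) and -1.15 for Arc (adjusted p = 0.168, edgeR). Without L246, 7 were called, the same 7 as in the average of F and M, where 10.2% of all genes were called, and Egr2 had -2.30 (SE 0.65, adjusted p = 0.0218, edgeR). Without both L246 and L291, 5 were called (Arc, Egr1, Fos, Npas4 and Nr4a1), where 8.03% of all genes were called.

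Other measures differed between the same groups. Reads outside genes made up 7.33% ± 1.40 (SD, n = 5) in KO CP2 M and 11.5% ± 1.64 (SD, n = 5) in WT CP2 M. The hippocampal score was 4.14 (3.77 to 4.34) in KO and 4.58 (4.47 to 4.69) in WT, while the summed level of the 15 markers overlapped (730 to 868 CPM against 737 to 851 CPM). The 4 astrocyte markers summed to between 1489 and 2639 CPM in KO and between 982 and 1257 CPM in WT, and the 4 microglia markers to between 215 and 265 CPM against 173 to 212 CPM. No marker of these lists was at 0 in any of the samples. The pan-neuronal score was 9.53 in both groups. With the hippocampal score as a covariate and all samples, Egr1 alone of the 10 was called in M, where 6.96% of all genes were. Without L246, 6 of the 10 were called, where 7.36% of all genes were. When the percentage of reads outside genes was the covariate and L246 was left out, Egr1 alone of the 10 was called in M. In the average of F and M, 7 of the 10 were. The shares of all genes called were 3.56% in M and 11.6% in the average. The part of the astrocyte and microglia markers was not tested.

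In the F samples with CP2, 9 of the 10 log2 differences were negative, with a median of -0.85, but 0 were called, where 2.00% of all genes were called. At an unadjusted p of 0.05, 3 of the 10 and 4030 of all genes passed in edgeR. Egr2 had 1.15, 6.94, 2.76, 1.25 and 2.74 CPM in KO and 15.8, 30.2, 11.2, 8.31 and 4.0 CPM in WT, a log2 difference of -2.22 (SE 0.85, adjusted p = 0.181, edgeR). L216 of KO lay above L311 of WT, and all other KO samples were below all WT samples. Fosb had 5.20, 7.59, 8.24, 6.57 and 8.95 CPM in KO and 24.1, 30.3, 21.4, 9.72 and 9.53 CPM in WT. Fosb was the only one of the 10 genes whose groups did not overlap here, with every KO sample lower, as in 1.77% of all genes. It was also the only one called without L246 (log2 difference -1.37, SE 0.30, adjusted p = 0.0168, edgeR), where 1.92% of all genes were called. The F effect passed the test of a difference from the M effect for 0 of the 10 genes, where 0.820% of all genes were called. At an unadjusted p of 0.05, 0 of the 10 and 3641 of all genes passed (edgeR). Without L246, 0 were called, where 0.925% of all genes were. In that fit 2 of the 10 and 3613 of all genes passed at an unadjusted p of 0.05. The 2 were Atf3 (F minus M -1.39, SE 0.57, adjusted p = 0.234, edgeR) and Ier2 (0.75, SE 0.36, adjusted p = 0.335, edgeR).

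With vehicle in M, 3 samples against 3, all 10 genes were lower in KO, with a median log2 difference of -1.06, and 0 were called, where 0.516% of all genes were. Npas4 had 5.04, 4.53 and 2.60 CPM in KO and 11.3, 15.9 and 14.4 CPM in WT, a log2 difference of -1.78 (SE 1.1, adjusted p = 0.55, edgeR). Fos had 7.80, 8.42 and 4.53 CPM in KO and 22.5, 28.4 and 16.1 CPM in WT, a log2 difference of -1.69 (SE 1.0, adjusted p = 0.532, edgeR). In 9 of the 10 genes, all but Atf3, every KO sample was below every WT sample, as in 10.3% of all genes. At an unadjusted p of 0.05, 1 of the 10 and 3132 of 25601 genes passed with L246 in the fit (edgeR). Without L246, which was singled out by its values in these genes, 7 of the 10 and 3157 of 25511 genes did. After adjustment 0 of the 10 passed in either fit, where 0.516% and 0.537% of all genes did. In these groups reads outside genes made up 12.1% ± 0.885 (SD, n = 3) in KO and 10.2% ± 1.22 (SD, n = 3) in WT, so this share was higher in KO here and lower in KO with CP2 in M. Of 15 sums of markers, 6 did not overlap between these groups, given below with KO first. Hippocampal markers summed to 789 to 947 CPM against 647 to 775 CPM, excitatory neuron markers to 1403 to 1727 CPM against 949 to 1105 CPM and endothelial markers to 127 to 142 CPM against 116 to 123 CPM, so these were higher in KO. Thalamic markers summed to 199 to 204 CPM against 302 to 366 CPM, oligodendrocyte markers to 6338 to 7234 CPM against 7614 to 8127 CPM and blood markers to 38.6 to 87.3 CPM against 115 to 647 CPM, so these were lower. Their part in the result was not tested.

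**Figure D3:**
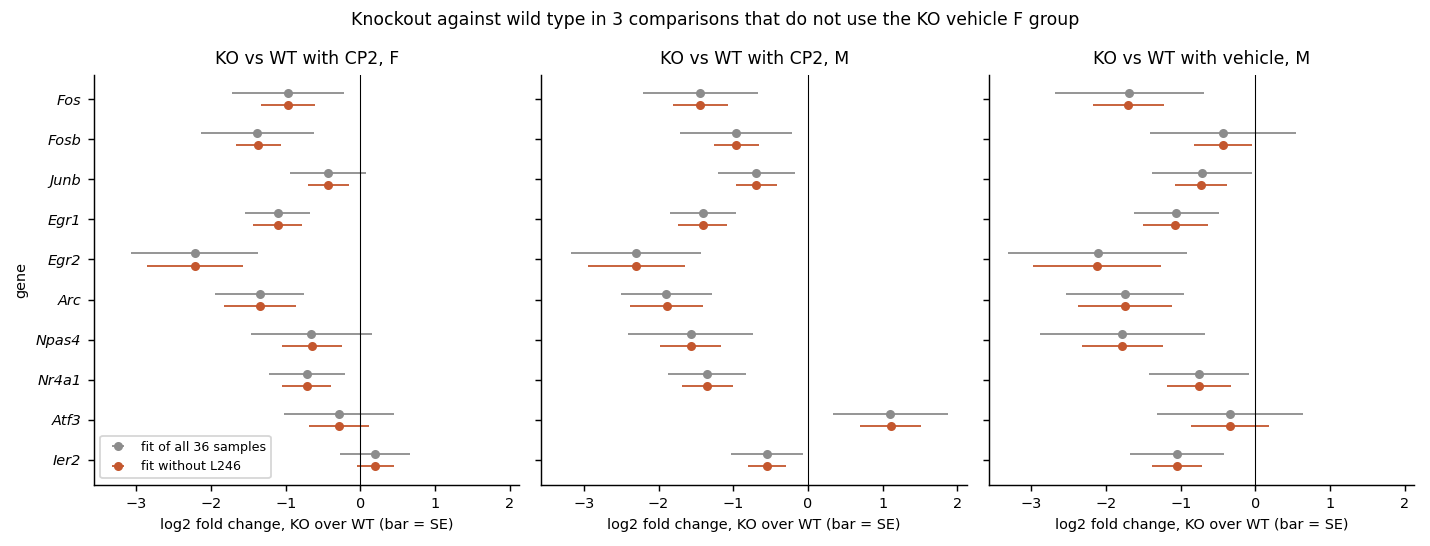
Log2 fold change of KO over WT with its SE for the 10 genes in F and M with CP2 and in M with vehicle, from the fit of all 36 samples in grey and the fit without L246 in orange. The estimates coincide while the SE of Fos in M with CP2 goes from 0.77 to 0.37.

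CP2 itself was compared with vehicle within each genotype. In WT, averaged over F and M, 9 of the 10 genes had a positive log2 difference with a median of 0.54, and 0 were called, as were 0% of all genes. At an unadjusted p of 0.05 there were 0 of the 10 and 1031 of all genes, and DESeq2 also called 0 of the 10. In the fit without L246, which is in neither group, 5 of the 10 (Fosb, Egr1, Egr2, Arc and Nr4a1) and 1058 of all genes were under an unadjusted p of 0.05, and again 0 were called (edgeR). The largest was Egr2 at 1.01 (SE 0.64, adjusted p = 1.0, edgeR), followed by Arc at 0.89 (SE 0.46, adjusted p = 1.0, edgeR). In KO, M, the median was 0.35 and 0 of the 10 were called (0 also in DESeq2), where 5.10% of all genes were called. At an unadjusted p of 0.05 there were 0 of the 10 and 4977 of all genes (edgeR). The test of whether CP2 acted differently in KO and WT, in M, called 0 of the 10, where 1.98% of all genes were called. At an unadjusted p of 0.05 it gave 0 of the 10 and 4244 of all genes (edgeR). The SE of this test ran up to 1.4 (Npas4 and Egr2) in this fit. Without L246 the SEs were from 0.42 (Ier2) to 1.1 (Egr2), and 0 of the 10 were called, where 2.08% of all genes were. Atf3 alone of the 10 was under an unadjusted p of 0.05 (log2 difference 1.44, SE 0.66, adjusted p = 0.259, edgeR), as were 4294 of all genes.

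Ordered by mean log2 CPM without L246, WT CP2 F was the highest group for 8 of the 10 genes and KO vehicle M the lowest for 7. For Egr1 the order was WT CP2 F (8.19), WT CP2 M (7.94), WT vehicle F (7.55), WT vehicle M (7.55), KO CP2 F (7.06), KO vehicle F (6.99), KO CP2 M (6.52) and KO vehicle M (6.46). No neighbours in that order were further apart than the larger of their SDs. Over all 10 genes, 6 of 70 neighbouring pairs were. Fos had 2 of these, from KO vehicle F (3.93) to KO CP2 M (3.30) and on to KO vehicle M (2.75). In Fos, Fosb, Egr1, Egr2, Arc and Npas4 the 4 WT groups were above the 4 KO groups. Atf3 did not follow, with WT CP2 F (0.38) and KO CP2 M (0.18) at the top and WT CP2 M (-0.87) at the bottom.

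**Figure D4:**
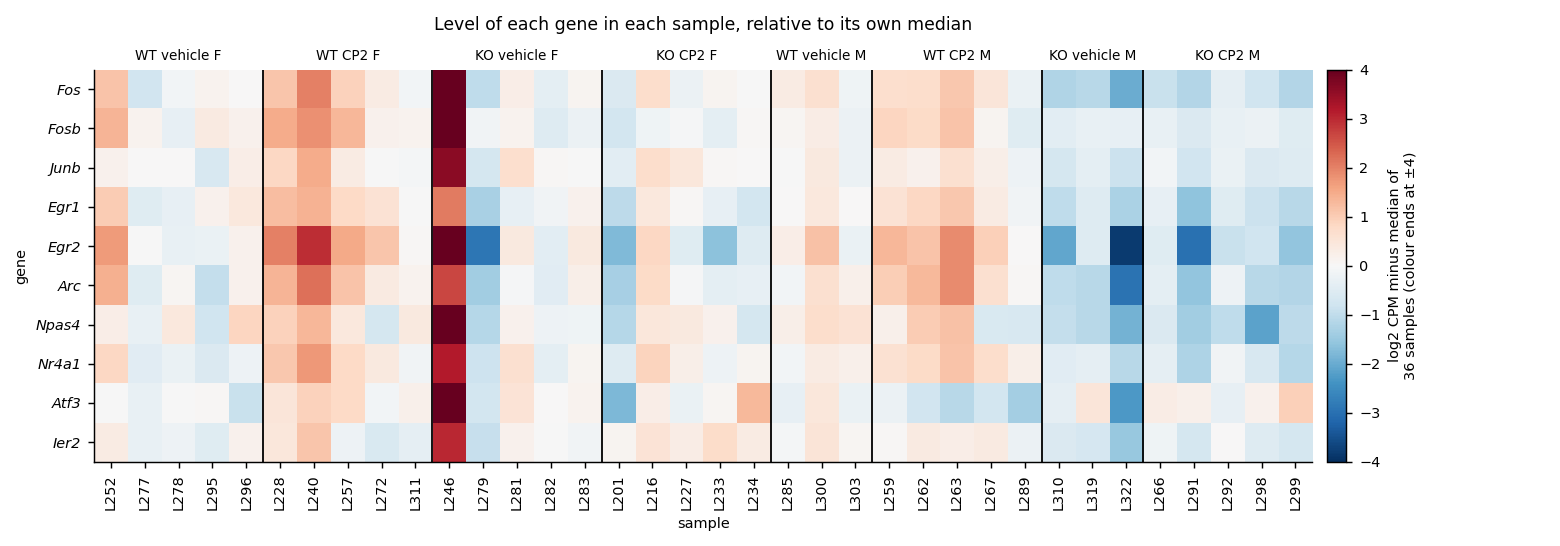
Log2 CPM of each of the 10 genes minus its median over the 36 samples, by sample and group, red above and blue below. Rows other than Atf3 share their pattern: L246 is high in every row, L240 is the next highest, and L322 of KO vehicle M is low for most genes.

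The 10 genes varied together from sample to sample. Without L246, the 45 pairs had Spearman correlations of log2 CPM from 0.06 to 0.94 with a median of 0.77 over 35 samples, as a description with no test, since each pair comes from the same libraries. The 9 pairs with Atf3 had a median of 0.13 (0.06 to 0.24). With group means removed, all pairs had a median of 0.71 and those with Atf3 of 0.41, so the genes also varied together among animals of the same group. The non-member genes most like the mean of the 10 genes over 36 samples were Egr4 (Spearman 0.93), Dusp6 (0.91), Midn (0.89), Trib1 (0.87), Adrb1 (0.85), Dusp1 (0.84), Dnajb1 (0.83) and Phlda1 (0.82), out of 15410 genes. Without L246 the first 7 were the same, followed by Rundc1 (0.81).

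Among other genes of the pathway, Homer1 and Egr3 were lower in KO with CP2. Averaged over F and M, 8 of the 40 other immediate early genes were called, 0 higher and 8 lower, where 11.6% of all genes were called, with a list median of -0.15 against 0.01 for all genes. Homer1 had 118 ± 22.7 CPM in KO and 231 ± 46.7 CPM in WT in F, and 110 ± 18.5 against 211 ± 59.2 CPM in M (SD, n = 5 each). Its log2 difference was -0.96 (SE 0.16, adjusted p = 0.000139, edgeR). Egr3, a relative of Egr1, had a log2 difference of -1.0 (SE 0.20, adjusted p = 0.00130, edgeR). In both genes every KO sample was below every WT sample within F and within M. Of the same list, 1 was called in F, where 2.00% of all genes were, and 5 in M, where 9.99% were, all lower. Without L246 there were 4 in F, all lower, and 10 in M (9 lower and 1 higher), where 1.92% and 10.2% of all genes were called. Among those called in M were Fosl2, an AP-1 subunit, at -1.21 (SE 0.33, adjusted p = 0.0175, edgeR) and Nr4a3, a relative of Nr4a1, at -1.05 (SE 0.32, adjusted p = 0.0313, edgeR), both in M. Nr4a3's call was lost when any of L262, L263, L291, L292, L298 or L299 was left out, with adjusted p from 0.0535 to 0.0771 (edgeR), and Fosl2's without L263 (0.0583) or L299 (0.0505). With the percentage of reads outside genes as a covariate, neither was called in M (adjusted p = 0.114 for Fosl2 and 0.140 for Nr4a3, edgeR), where 3.37% of all genes were.

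Of 20 later activity-regulated genes, 3 were called lower and 0 higher in the average of F and M, where 11.6% of all genes were called, with 14 negative and a list median of -0.16. Pcsk1, a prohormone convertase, was lower in F by -0.74 (SE 0.19, adjusted p = 0.0322, edgeR), a call that was lost when any of L201, L228, L233, L240 or L257 was left out. Of 32 regulators, 5 were called higher and 5 lower in the average, with a list median of -0.03. Srf was lower by -0.25 (SE 0.069, adjusted p = 0.0149, edgeR). Rps6ka2, a ribosomal S6 kinase, was lower in F by -0.44 (SE 0.085, adjusted p = 0.00419, edgeR). In M, Mapk3, a MAP kinase, was higher by 0.38 (SE 0.088, adjusted p = 0.00340, edgeR). Arnt2, the partner of Npas4, was also higher in M, by 0.30 (SE 0.068, adjusted p = 0.00345, edgeR). With the percentage of reads outside genes as a covariate, neither Mapk3 (adjusted p = 0.0574, edgeR) nor Arnt2 (adjusted p = 0.228, edgeR) was called, where 3.37% of all genes were.

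Of 19 stress genes, 2 were called higher and 6 lower in the average of F and M, with a list median of -0.23, where 11.6% of all genes were called. Vegfa, a growth factor of blood vessels, was lower in M by -0.74 (SE 0.091, adjusted p = 2.02e-06, edgeR), at 46.2 ± 6.2 CPM in KO and 76.9 ± 6.77 CPM in WT (SD, n = 5 each). Hsph1, a chaperone, was lower in M by -0.57 (SE 0.13, adjusted p = 0.00355, edgeR). With vehicle in M, 0 genes of any of the 4 lists passed in the fit of all 36 samples, where 0.516% of all genes did. Without L246, Vegfa passed, lower in KO by -0.46 (SE 0.12, adjusted p = 0.0485, edgeR), where 0.537% of all genes did. In CP2 against vehicle in KO, M, 1 gene of the 4 lists was called, where 5.10% of all genes were. It was Amigo3, a synaptic adhesion protein, at 2.08 ± 0.527 CPM with CP2 (SD, n = 5) and 4.41 ± 1.14 CPM with vehicle (SD, n = 3), a log2 difference of -1.08 (SE 0.24, adjusted p = 0.00476, edgeR). Its call was lost without L322 (adjusted p = 0.0987, edgeR) and with the percentage of reads outside genes as a covariate (adjusted p = 0.557, edgeR).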

How the data were processed

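Per the labels' protocols, a Trizol-based kit gave total RNA, and TruSeq libraries were made from its polyA fraction. The authors deposited raw counts for Ensembl genes; STAR, HTSeq and GRCm39 are named in the submitters' processing notes. Annotation release, strandedness and read filters are not given in the sources used here. The 5 summary rows of the table were left out of library sizes. GENCODE M21 gave symbols for 52073 of 56980 gene rows (91.4%) and exon lengths; RefSeq GRCm38.p6 gave promoter windows, which is not the build the reads were aligned to, so those coordinates belong to RefSeq only.

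Counts were tested with edgeR 4.0.16 (R 4.3.3; limma 3.58.1) on all 36 samples: TMM, filterByExpr on the 8 groups, a coefficient per group, robust glmQLFit and glmQLFTest. P-values were adjusted by Benjamini-Hochberg over all 25601 genes, and genes were called at an adjusted p under 0.05. In all, 11 comparisons were tested and 2, which use KO vehicle F, were described. CPM uses TMM library sizes; log2 CPM has a prior count of 2. The fit was tested on simulated data. DESeq2 1.42.0 was an alternative. The 10 genes and the lists were chosen with earlier results of these data known. Genes of 4 lists (40 other immediate early genes, 20 later activity-regulated genes, 32 pathway regulators and 20 stress genes, of which 19 were tested) were named, up to 4 per list and comparison, for the largest log2 difference among called genes with a mean of at least 1 CPM and no overlap between groups; further genes are named in L246 for their values. The SDs between animals include counting error.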

Additional observations from a re-analysis of the deposited data

Results flagged for a closer look

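Samples that lay far from the rest of their group of 5 were sought for each of the 10 genes in the 6 groups of that size. Of 60 gene and group combinations, 15 had such a sample, and 10 of the 15 are L246. Chance flags about 1 in 20 independent groups, but these genes vary together, so nothing is read from the number. In KO vehicle F, L246 was the far sample for all 10 genes: Fos at 644 CPM, Fosb at 330 CPM, Junb at 644 CPM, Egr1 at 716 CPM, Egr2 at 74.7 CPM, Arc at 594 CPM, Npas4 at 419 CPM, Nr4a1 at 480 CPM, Atf3 at 28.9 CPM and Ier2 at 75.4 CPM. These values chose the genes. In WT vehicle F, L252 was the far sample for 4 genes. It had 21.8 CPM of Fosb where the others had at most 11 CPM, 12.6 CPM of Egr2 (others at most 4.34 CPM), 246.5 CPM of Arc (others at most 104 CPM) and 93.8 CPM of Nr4a1 (others at most 45.8 CPM). In KO CP2 F, L216 had 6.94 CPM of Egr2 where the others had at most 2.76 CPM.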

How the results depend on the processing

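Alternatives that leave out L246 together with another change were chosen after seeing the data. L246 itself was singled out by its values in the 10 genes, so counts gained without it are a description. Counts below are of the 10 genes called. Percentages in brackets are the share of all genes called in the same fit. Counts of an alternative given without such a share are not set against all genes, and nothing is read from them. For KO against WT with CP2, average of F and M (3 called, 11.6%), the title number as a covariate gave 6 (11.2%). Leaving out L246 gave 7 (11.8%), also together with the share of reads outside genes (11.6%), the hippocampal score (11.9%) or L291 (10.8%). With L246 left out, the title number (11.4%) and DESeq2 (14.6%) each gave 8. Leaving out single samples gave 3 to 7 (8.91% to 11.9%). In M (2 called, 9.99%) DESeq2 gave 4 (12.6%), no low-count filter 0 (4.52%) and the title number 0 (7.83%). The share of reads outside genes gave 0 (3.37%), the hippocampal score 1 (6.96%) and a fit of M samples only 9 (16.6%). With L246 left out, the share of reads gave 1 (3.56%), the hippocampal score 6 (7.36%) and the title number 1 (7.18%). Leaving out L246 and L291 gave 5 (8.03%). DESeq2 without L246 gave 8 (12.8%), among them Atf3, whose log2 difference in edgeR without L246 was 1.11. Single samples gave 0 to 7 (5.74% to 10.4%). In F (0 called, 2.00%) the title number gave 3 (1.14%), and single samples 0 to 1 (0.548% to 3.66%). With L246 left out, the share of reads gave 1 (1.10%), the hippocampal score 1 (1.75%) and the title number 6 (1.03%). DESeq2 then gave 3 (3.60%), and leaving out L291 as well gave 1 (1.90%). With vehicle in M (0 called, 0.516%) a fit of M samples only gave 2, and DESeq2 without L246 gave 2. With vehicle in F (4 called, 4.96%, described only) no low-count filter gave 1. The title number, the share of reads, the hippocampal score and a fit of F samples only gave 0, as did the 5 alternatives with L246 left out, and single samples gave 0 to 5. For CP2 in KO, F (0 called, 0.0859%, described only), DESeq2 gave 4, the title number 3 and single samples 0 to 1. DESeq2's size factors within edgeR changed no count by over 1.5 times. The cause of these changes was not tested. Of the single values, none was reversed. Lost calls among them are those named in the report and others of Egr1, Arc and the list genes. No paired analysis was possible because no sample number is shared between groups. Atf3 and Egr2 have the lowest counts of the 10 genes, which limits their precision.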
